A study of Mus musculus with 20 samples.

Results

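The genes described are the RhoGAP and RhoGEF regulators of the GTPases RhoA, Rac1, Cdc42 and their relatives, taken as the genes of the expression table whose symbol reads Arhgap or Arhgef followed by a number and an optional suffix, apart from a gene that the rule leaves out. The rule found 60 of the 39179 genes in the table. They were 31 GTPase-activating proteins (GAPs), 25 guanine nucleotide exchange factors (GEFs) and 4 noncoding transcripts that lie on the strand opposite a GAP gene. Other proteins with the same activities but other names are given separately as part of the wider pathway. The libraries were RNA sequencing libraries of 20 single podocytes taken from a single male mouse at 8 weeks of age, wild-type and of strain C57BL/6, which the sample labels write as C56BL/6. Glomeruli, the filtering units of the kidney, were isolated with magnetic beads and dissociated with enzymes, and single cells were captured on a Fluidigm C1 instrument. All 20 cells formed 1 group without treatment and came from 1 animal, so no comparison between conditions was possible, no p-value is given, and each SD is the spread between cells of this mouse.

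GTPases of the RhoA family are molecular switches that are active when bound to GTP and inactive when bound to GDP. GEFs exchange GDP for GTP and switch such a GTPase on, whereas GAPs speed the hydrolysis of GTP and switch it off. RhoA drives contractile actin bundles, and Rac1 and Cdc42 drive branched actin and membrane protrusion. Podocytes wrap the glomerular capillaries with interdigitating foot processes built on actin, and a balance between these GTPases is known to be needed for their shape in mouse and human.

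Expression is given in RPKM, the reads of a gene per kilobase of its length and per 1000000 reads, and a gene counts as found in any cell where it reaches 1 RPKM. The libraries held 4205562 to 10448491 reads assigned to genes, so that 3 reads in a gene of 2000 bases stood for 0.144 to 0.357 RPKM. Of the 10 podocyte markers listed, 9 or 10 were found in every cell, with a summed level of 3186 to 8399 RPKM. Markers of mesangial and mural cells, the contractile support cells of the glomerulus, were also present in cells 5, 6, 10, 11 and 14. These 5 cells held 6 to 8 of 11 such markers with a sum of 2138 to 5401 RPKM, against 0 or 1 marker and 0.210 to 84.7 RPKM in the other 15 cells. Acta2, Tagln and Ren1, which define smooth muscle-like and renin cells, were found in no cell. Cell 8 held 9 of 11 endothelial markers with a sum of 2432 RPKM, although its Egfl7 and Erg stayed below 1 RPKM, as in the remaining cells. In the 5 cells with mesangial markers 1 to 3 endothelial markers were found, with a sum of 11.1 to 489 RPKM. Of 8 immune markers 1 was found, Fcer1g in cell 5 at 495 RPKM, and none of 7 tubule markers was found in any cell. For cells 5, 6, 8, 10, 11 and 14, the value without them is given where leaving them out changes an order or moves a median by over 1.5 times.

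The podocyte libraries held transcripts of many of the GAP and GEF regulators, but each library held its own selection. Transcripts missed in making a library were not separated from transcripts absent from the cell. Of the 56 coding regulators, 36 (64.3%) were found in at least 1 cell, whereas 46.5% of the 21226 protein-coding genes of the table were found in at least 1 cell. In at least 10 of the 20 cells 13 regulators (23.2%) were found, against 11.01% of protein-coding genes. In at least 18 cells 4 regulators were found (7.14%, against 2.75%), and these were Arhgef18, Arhgef12, Arhgap28 and Arhgap5. No regulator was found in all 20 cells, a breadth reached by 1.11% of protein-coding genes. Another 14 regulators (25.0%, against 23.6%) were found in only 1 to 4 cells. A level of 100 RPKM in at least 1 cell was reached by 19 regulators (33.9%, against 26.3%).

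A single cell held between 9 regulators (cell 7) and 24 (cell 10), with a median of 14 and an SD of 3.23. The 5 cells with mesangial markers held 13 to 24 regulators and the other 15 cells 9 to 17, so the ranges overlapped. Over the 20 cells, which share 1 animal, the number of regulators found followed the number of all genes found (Spearman's rank correlation 0.599, Pearson's r 0.768, given as a description). Without the 6 cells with mesangial or endothelial markers the rank correlation was 0.379 over 14 cells. The number of reads per library did not order the cells by regulators found (rank correlation −0.0562). As proportions the GEFs were found more often than the GAPs, with 18 of 25 GEFs and 18 of 31 GAPs in at least 1 cell, but the GAPs supplied 8 of the 13 regulators found in at least 10 cells.

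**Figure D1:**
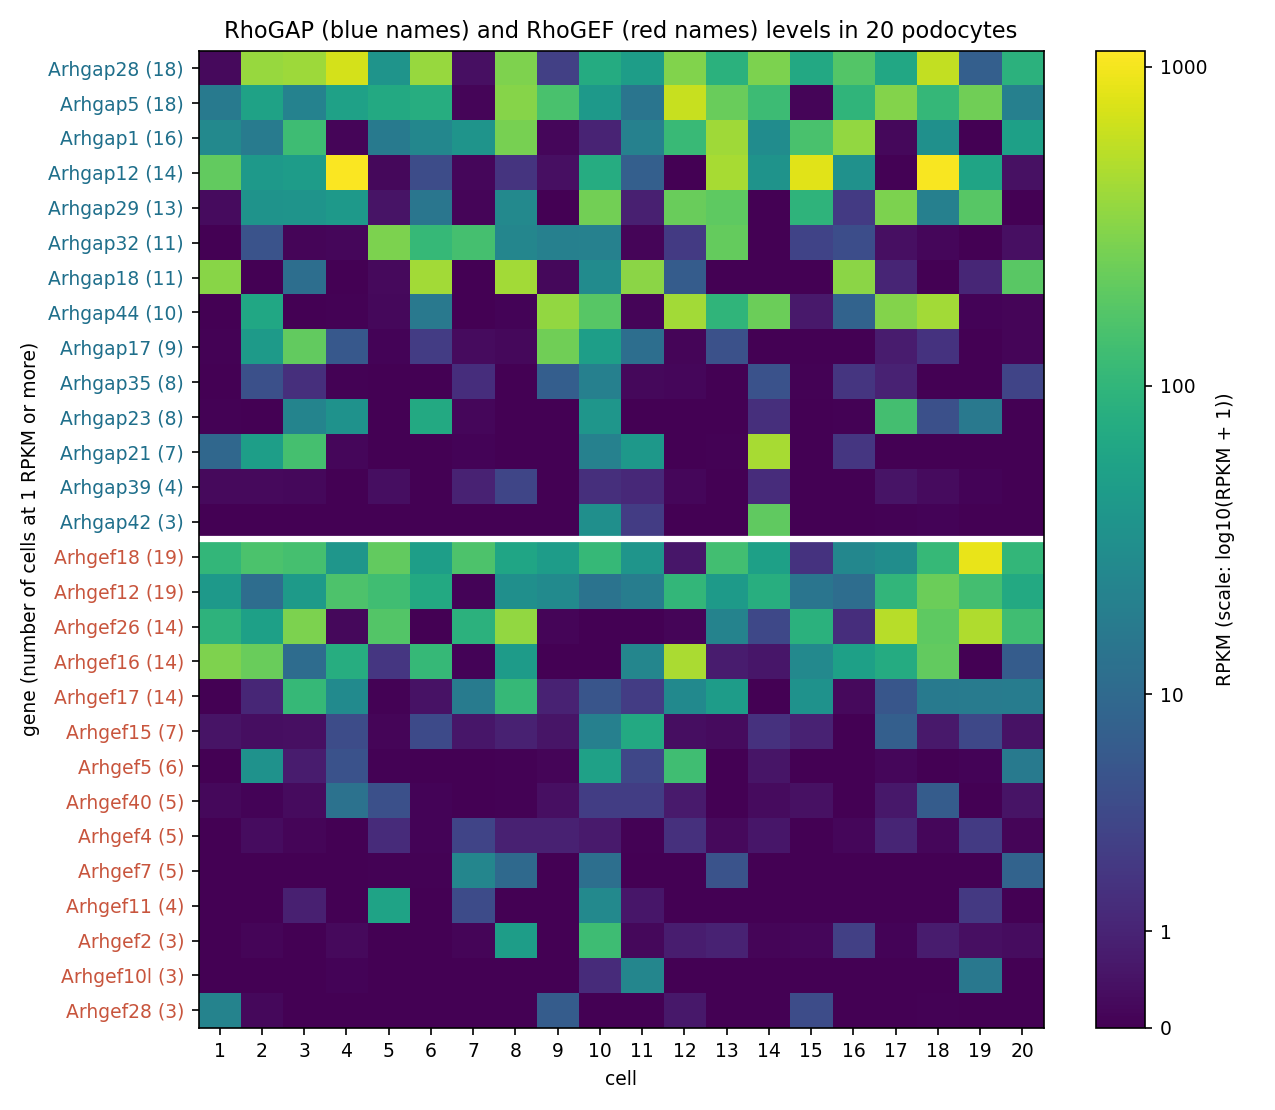
Level of each regulator found in at least 3 cells (rows, GAPs above and GEFs below the white line, with the number of cells in brackets) in each of the 20 cells (columns), in RPKM coloured on a scale of log10(RPKM + 1). The rows of Arhgef18, Arhgef12, Arhgap28 and Arhgap5 are filled nearly throughout, and most other rows are bright in some cells and dark in the rest.

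Of the 9 GAPs that act mainly on RhoA, 7 were found and 4 were found in at least 10 cells. Arhgap28, a RhoA GAP encoded on chromosome 17 (GRCm38, 67842713 to 68004120, minus strand), had the highest median of all regulators over the 20 cells. Its level ran from 0.201 RPKM in cell 1 through a median of 88.9 RPKM to 716 RPKM in cell 4, with a mean of 199 ± 209 (SD, n = 20 cells). It was found in 18 cells and lay below 1 RPKM only in cells 1 and 7. Without the 6 cells with other markers its median was again 88.9 RPKM, below those of Arhgef18 (103.4 RPKM) and Arhgef26 (89.65 RPKM). Arhgap5 (chromosome 12, 52503972 to 52571975, plus strand) encodes a GAP that turns RhoA off downstream of integrin adhesion and is closely related to Arhgap35. Its lowest, median and highest levels were 0.0915, 74.2 and 624 RPKM, with a mean of 128 ± 152 (SD, n = 20 cells). Arhgap5 was also found in 18 cells, and its low cells were 7 and 15. Its relative Arhgap35 was found in 8 cells and reached only 20.2 RPKM, in cell 10.

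Arhgap29, a RhoA GAP that works with Rasip1 in endothelial cells, was found in 13 cells. Its level went from 0 through a median of 23.3 to 281 RPKM in cell 17, and without the 6 cells with other markers the median was 36.5 RPKM. Cells 10, 12, 13 and 19 were also high (179 to 254 RPKM), and cells 1, 5, 7, 9, 11, 14 and 20 lay below 1 RPKM. Arhgap18, a RhoA GAP that limits stress fibres during cell spreading, split the cells more sharply. Of the 20 cells 11 passed 1 RPKM, the median was 1.12 RPKM, the lowest level 0 and the highest 418 RPKM, in cell 8. Cells 6, 11, 16 and 1 lay between 319 and 417 RPKM and cell 20 at 183 RPKM. The other cells in which it was found held 1.08 to 28.9 RPKM, and the remaining 9 cells held at most 0.192 RPKM. Of the 6 cells high in Arhgap18, cells 6, 8 and 11 carry mesangial or endothelial markers and cells 1, 16 and 20 do not. Its median was 0.627 RPKM without the 6 cells with such markers.

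Arhgap42, a RhoA GAP of smooth muscle that restrains blood pressure in mice, was found only in 3 of the 5 cells with mesangial markers. Cell 14 held 203 RPKM, cell 10 held 32.0 RPKM and cell 11 held 2.53 RPKM, and the median over all cells was 0. Arhgap6, another RhoA GAP, was found in cell 5 at 38.1 RPKM and in cell 11 at 4.50 RPKM, both of which also carry mesangial markers. Arhgap19, which acts on RhoA in dividing lymphocytes, had reads but never exceeded 0.0755 RPKM, and Arhgap11a, a RhoA GAP of dividing cells, had no read in any cell.

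Among the 12 GAPs that act mainly on Rac1 or Cdc42, 7 were found, and Arhgap1, Arhgap12 and Arhgap44 were found in at least 10 cells. Arhgap1, a widely expressed Cdc42 GAP, was found in 16 cells with a lowest level of 0 in cell 19, a median of 27.8 and a highest of 412 RPKM in cell 13. Cells 16 and 8 followed at 359 and 267 RPKM, and cells 4, 9, 17 and 19 lay below 1 RPKM. Arhgap12, a Rac1 GAP of cell junctions, showed the highest single value of any regulator. Cells 4, 18, 15, 13 and 1 held 1071, 1061, 817, 448 and 209 RPKM, in that order. The remaining cells held 75.5 RPKM or less, and the median was 35.0 RPKM over 20 cells, of which 14 passed 1 RPKM. The mean of 196 ± 358 RPKM (SD, n = 20 cells) therefore describes few of the cells.

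Arhgap44, a GAP for Rac1 and Cdc42 with a membrane-bending BAR domain, was found in exactly 10 cells. Its lowest, median and highest levels were 0, 4.48 and 428 RPKM. Cells 18, 12, 9, 17, 14 and 10 held 182 to 428 RPKM, cells 13 and 2 held 96.9 and 65.4 RPKM, and cells 6 and 16 held 15.9 and 8.35 RPKM. The 10 cells without a call lay at 0.625 RPKM or less. Arhgap44 and Arhgap18 were found together in 5 cells. None of the 6 cells that held Arhgap44 at 182 RPKM or more was among the 6 that held Arhgap18 at 183 RPKM or more. These limits were read from the same values, and the separation was not tested. Over all 20 cells the rank correlation of these genes was weak (−0.24, and −0.22 without the 6 cells with other markers).

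Arhgap17, a relative of Arhgap44 that sits at epithelial tight junctions, was found in 9 cells, had a median of 0.455 RPKM and reached 244 RPKM (cell 9) and 209 RPKM (cell 3). Arhgap31, a Cdc42 and Rac1 GAP mutated in human Adams-Oliver syndrome, was found in cells 14 and 12 at 20.8 and 3.36 RPKM. Arhgap39 was found in 4 cells at up to 3.32 RPKM, and Arhgap33 in cell 6 alone at 4.64 RPKM. Arhgap9, Arhgap15 and Arhgap25, which are known from blood cells, had no read, and neither had Arhgap22 and Arhgap27.

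Of the 10 GAPs with mixed or uncertain targets, 4 were found. Arhgap32, a GAP best known from neurons, passed 1 RPKM in 11 cells, and its median was 2.73 RPKM, or 1.34 RPKM without the 6 cells with other markers. It was high in cells 5, 13, 7 and 6 (278, 212, 139 and 109 RPKM) and had no read in its lowest cells. Arhgap21, a GAP of the Golgi and of cell junctions, passed 1 RPKM in 7 cells, and its lowest, median and highest levels were 0, 0.0241 and 441 RPKM, the last in cell 14, followed by cell 3 at 141 RPKM. Its paralogue Arhgap23 was found in 8 cells, had a median of 0.035 RPKM and reached 136 RPKM (cell 17) and 69.6 RPKM (cell 6). Arhgap10 was found in cell 12 alone at 2.24 RPKM. Arhgap30, known from blood cells, reached 0.527 RPKM, Arhgap36 and Arhgap4 stayed at or below 0.342 RPKM, and Arhgap8, Arhgap20 and Arhgap40 had no read.

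The RhoA-directed GEFs were the class found most completely, with 14 of 15 genes in at least 1 cell, although only 3 of them were found in at least 10 cells. Arhgef18 (chromosome 8, 3393006 to 3456601, plus strand), a RhoA GEF of epithelial tight junctions, was found in 19 cells. Its lowest level was 0.541 RPKM in cell 12, its median 82.2 RPKM and its highest 883.5 RPKM in cell 19, with a mean of 122 ± 188 (SD, n = 20 cells). The next highest cell held 205 RPKM, so cell 19 stood apart from the rest. Arhgef12 (chromosome 9, 42963842 to 43107239, minus strand) couples G protein-coupled receptors to RhoA through its RGS domain and was also found in 19 cells. Its lowest, median and highest levels were 0.0575, 45.2 and 230 RPKM, in cell 7, over all cells and in cell 18. Wherever it was found it held at least 11.2 RPKM, and its SD was 0.899 of its mean, 66.9 ± 60.2 RPKM (SD, n = 20 cells).

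Arhgef17, a RhoA GEF, passed 1 RPKM in 14 cells. Its lowest and median levels were 0 and 11.2 RPKM (median 17.5 RPKM without the 6 cells with other markers), and its highest were 111 and 108 RPKM in cells 3 and 8. Arhgef1 and Arhgef11, which carry the same type of RGS domain as Arhgef12, were far rarer. Arhgef1 was found in cells 9 and 13 at 18.4 and 13.3 RPKM. Arhgef11 was found in 4 cells, of which cells 5 and 10 held 57.7 and 26.0 RPKM. Among the receptor-coupled GEFs, Arhgef12 was therefore the one found across podocytes.

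Arhgef2, which is held inactive on microtubules, was found in cells 10, 8 and 16, at 126, 48.9 and 2.81 RPKM, with a median of 0.159 RPKM over all cells. Arhgef15, a GEF known from blood vessels, was found in 7 cells with its highest levels in cells 11 and 10 (71.2 and 20.5 RPKM). Cells 10 and 11 held 3 endothelial markers each, with sums of 302 and 175 RPKM, and in cell 8, which held 9 of them, Arhgef15 stood at 0.895 RPKM. The part of other cell types in its level was not tested. Arhgef5, a GEF activated by Src family kinases, was found in 6 cells, its median being 0.0769 RPKM and its highest level 128 RPKM in cell 12.

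Arhgef40 was found in 5 cells at up to 13.3 RPKM in cell 4, Arhgef10l in 3 cells at up to 24.1 RPKM in cell 11, and Arhgef28 in 3 cells at up to 22.4 RPKM in cell 1. Arhgef10 was found in cells 5 and 9 at 45.2 and 25.3 RPKM. Arhgef25 and Arhgef3 were found in cell 8 alone, at 4.25 and 1.20 RPKM.

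Of the 6 GEFs for Rac1, Cdc42 or RhoG, the relatives Arhgef26 and Arhgef16 were the ones found broadly, each in 14 cells. Arhgef26 (chromosome 3, 62338344 to 62462221, plus strand) acts on RhoG, which feeds into Rac1, and promotes membrane ruffles. Its lowest, median and highest levels were 0, 71.3 and 533 RPKM, with cells 17, 19, 8 and 3 at 533, 478, 356 and 281 RPKM. Cells 4, 6, 9, 10, 11 and 12 lay below 1 RPKM. Arhgef16, which also acts on RhoG and binds ephrin receptors, had a median of 25.3 RPKM (39.9 RPKM without the 6 cells with other markers) and reached 456 RPKM in cell 12. Cells 1, 2, 18 and 6 followed at 111 to 289 RPKM, and cells 7, 9, 10, 13, 14 and 19 lay below 1 RPKM. Each of the cells except 9 and 10 held at least 1 of the pair at 1 RPKM or more, and 10 cells held both. Their rank correlation was 0.01, and −0.11 without the 6 cells with other markers.

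Arhgef7, the PIX protein that brings Pak kinases to focal adhesions, was found in 5 cells at 4.99 to 24.0 RPKM. Arhgef6, the PIX protein of blood and brain cells, had reads in 13 cells but reached at most 0.949 RPKM. Arhgef4, which binds the tumour suppressor Apc, was found in 5 cells at up to 3.22 RPKM. The 4 GEFs of mixed or uncertain target, Arhgef33, Arhgef37, Arhgef38 and Arhgef39, had no read, and neither had the RhoA-directed Arhgef19. Across the 14 regulators without a read, 9 GAPs and 5 GEFs, 3 reads would have stood for 0.0657 to 0.673 RPKM, depending on gene and library. Reads were absent for 41.8% of protein-coding genes, against 25.0% of the regulators.

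**Figure D2:**
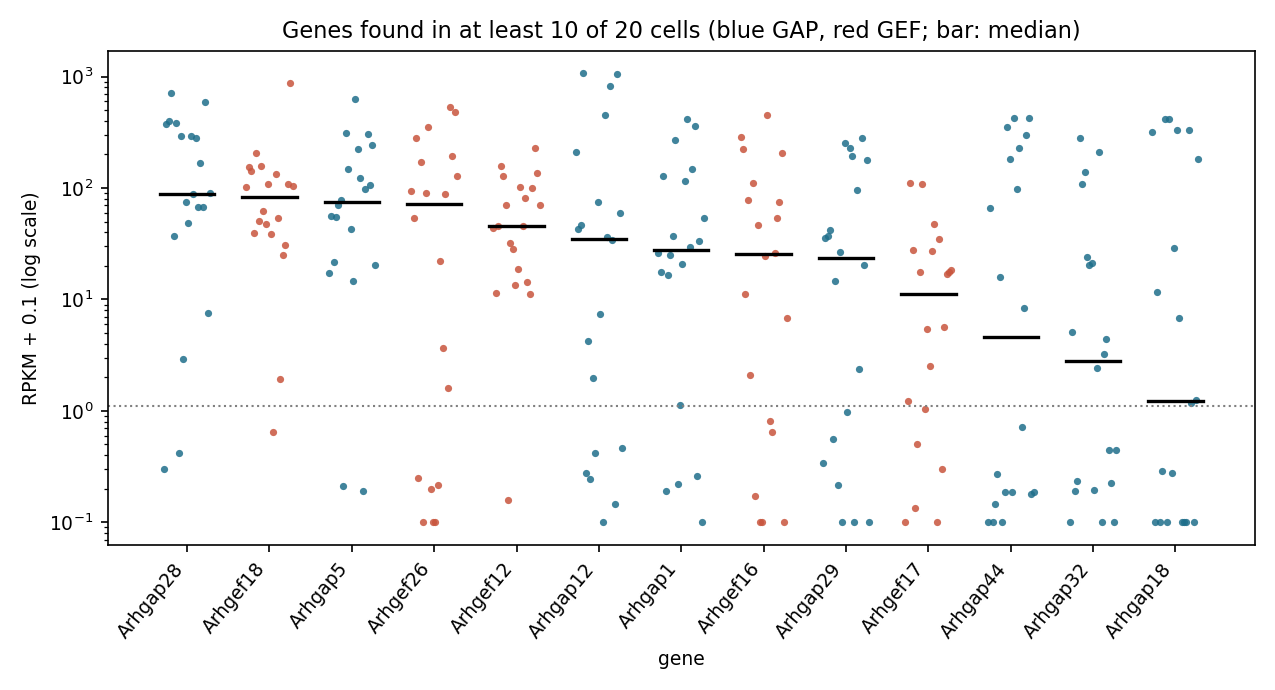
Level of the 13 regulators found in at least 10 cells, in RPKM + 0.1 on a logarithmic axis, with 1 point per cell (blue for GAPs, red for GEFs), a bar at the median and a dotted line at 1 RPKM. Arhgef12 holds all cells but 1 between 11.2 and 230 RPKM, whereas Arhgap18, Arhgap44 and Arhgap12 have cells from 0 to 418 RPKM or more.

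Summed by activity, the GAP transcripts outweighed the GEF transcripts in most cells. The summed level of the GAPs was 181 RPKM in cell 7, 1012 RPKM at the median and 2242 RPKM in cell 18, with a mean of 1025 ± 556 (SD, n = 20 cells). For the GEFs the lowest, median and highest sums were 94.3 RPKM in cell 16, 362 RPKM and 1541 RPKM in cell 19, with a mean of 463 ± 337 (SD, n = 20 cells). The GAP sum was above the GEF sum in 16 of 20 cells, the exceptions being cells 5, 7, 19 and 20, and in 15 when the reads were divided by the longest annotated transcript. The GAP share of the summed level ran from 24.8% in cell 19, the cell with the highest Arhgef18, through a median of 69.9% to 91.4% in cell 16. These sums cover only the 31 Arhgap and 25 Arhgef genes described here, not GAPs and GEFs of other names such as Srgap1 and Fgd4. A sum of transcript levels gives no measure of enzyme activity. Cells with a high GAP sum were not those with a high or a low GEF sum (rank correlation 0.0647, r −0.00699 on log2(sum + 1) over 20 cells, rank correlation 0.0989 without the 6 cells with other markers).

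By target, the RhoA-directed GAPs had the highest median sum in the deposited values, an order that turned with the longest transcript as gene length. They stood at 2.63 RPKM in the lowest cell, cell 7, at 473 RPKM at the median and at 1152 RPKM in cell 12. The Rac1- and Cdc42-directed GAPs had a median sum of 306 RPKM (17.3 to 1524 RPKM), the RhoA-directed GEFs 206 RPKM (39.1 to 1060 RPKM) and the Rac1-, Cdc42- and RhoG-directed GEFs 131 RPKM (1.08 to 609 RPKM). GAPs of mixed target summed to a median of 38.6 RPKM (0.347 to 443 RPKM). For RhoA the GAP sum exceeded the GEF sum in 17 of 20 cells, whereas for Rac1, Cdc42 and RhoG it did so in 11 of 20. With the longest transcript as gene length these became 15 and 12 cells. On that length the median sums were 218 RPKM for the RhoA-directed GAPs, 228 RPKM for the Rac1- and Cdc42-directed GAPs, 134 RPKM for the RhoA-directed GEFs, 57.5 RPKM for the Rac1-, Cdc42- and RhoG-directed GEFs and 14.8 RPKM for the mixed GAPs. Without the 6 cells with other markers the Rac1-, Cdc42- and RhoG-directed GEFs had a median sum of 211 RPKM, above the 206 RPKM of the RhoA-directed GEFs, and the mixed GAPs had 18.1 RPKM. In the remaining 14 cells the GAP sum exceeded the GEF sum in 12 for RhoA and in 8 for Rac1, Cdc42 and RhoG. The ranges of the classes overlapped.

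**Figure D3:**
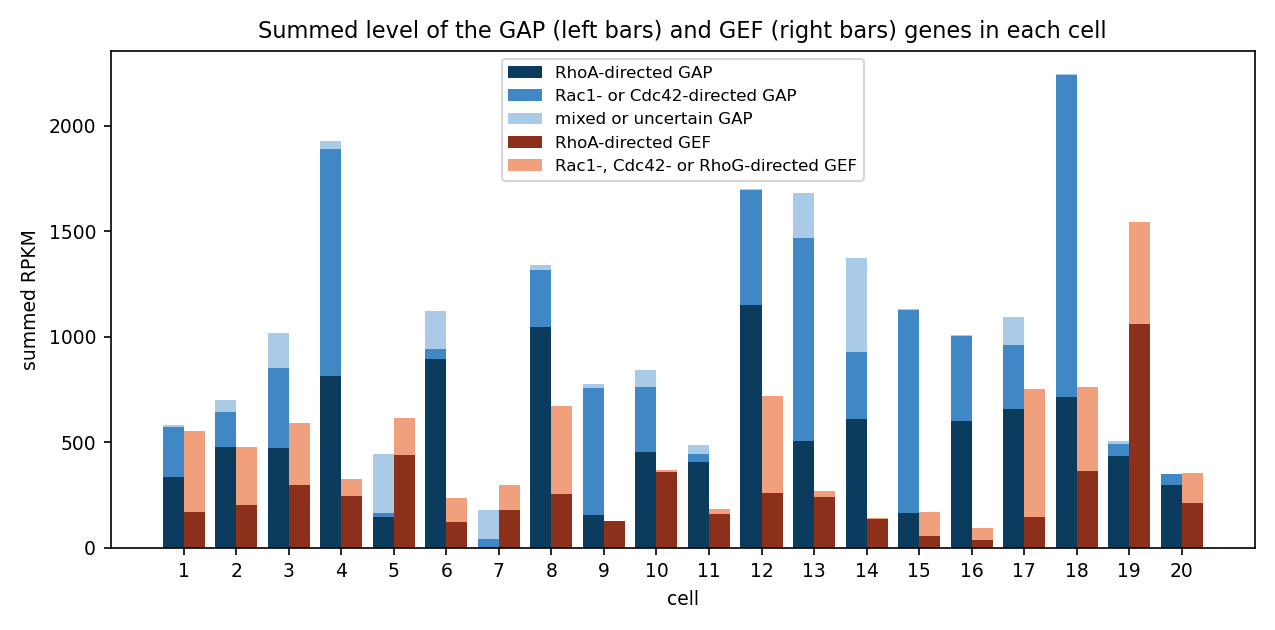
Summed level in RPKM of the GAPs (left, blue) and GEFs (right, red) in each of the 20 cells, stacked by main target. The GAP bar is the taller in 16 cells, and in cell 19 the GEFs reach 1541 RPKM.

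Each library leaned on a small number of regulators. The leading regulator of a cell held 20.8% to 62.7% of the summed level, with a median of 29.9%, and 11 different genes took this place. Arhgap18 led in 5 cells, Arhgap12 in 4, Arhgap28 and Arhgef18 in 2 each, and Arhgap1, Arhgap5, Arhgap21, Arhgap29, Arhgap32, Arhgap44 and Arhgef26 in 1 each. Of the 5 cells led by Arhgap18, 3 (cells 6, 8 and 11) carry mesangial or endothelial markers. In the 14 cells without them Arhgap12 led most often, in 4 cells, and Arhgap18 led in 2, as did Arhgap28 and Arhgef18. Arhgef12, found in 19 cells, led in none. Where a regulator was found, its level mostly lay well above 1 RPKM. For the 17 regulators found in 5 to 15 cells, the 161 found values had a median of 27.2 RPKM and 66.5% reached 10 RPKM. For all 3938 protein-coding genes found in as many cells the median was 26.5 RPKM and the share 65.1%, so this pattern was close to that of genes at large. Of the values not called found, 45.8% were exactly 0 for these regulators, against 56.0% for the protein-coding genes.

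As a family the regulators showed little rank correlation across cells. Among the 22 regulators found in at least 5 cells, the 231 pairs had a median rank correlation of 0.0300 over 20 cells of 1 animal, and the pairs of all 4873 such protein-coding genes had a median of 0.0269. A rank correlation of 0.6 or more was seen in 1 pair (0.433%, against 0.518% of all pairs), Arhgap32 with Arhgef7, at 0.69 and at 0.49 without the 6 cells with other markers. A rank correlation of −0.6 or less was also seen in 1 pair (0.433%, against 0.242%), Arhgap12 with Arhgef4, at −0.61. Without the 6 cells the pairs at 0.6 or more were 3 others (1.30%, against 1.66% of all pairs), Arhgap5 with Arhgap44 at 0.69, Arhgef12 with Arhgef40 at 0.65 and Arhgap23 with Arhgef15 at 0.61. At −0.6 or less there were then 4 pairs (1.73%, against 1.096%), Arhgap1 with Arhgef15 at −0.67, Arhgap12 with Arhgef4 at −0.65, Arhgap32 with Arhgef12 at −0.64 and Arhgap32 with Arhgap23 at −0.61. The regulators most like Arhgap28 in rank were Arhgef16, Arhgef17 and Arhgef12 (rank correlation 0.48, 0.33 and 0.32, and 0.42, 0.40 and 0.44 without the 6 cells). For Arhgef18 they were Arhgef26, Arhgef7 and Arhgef4 (0.43, 0.38 and 0.35, and 0.44, 0.38 and 0.32 without the 6 cells). For Arhgap5 they were Arhgef4, Arhgap44 and Arhgef12 (0.55, 0.54 and 0.43, and 0.57, 0.69 and 0.48 without the 6 cells).

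Some regulators were found only in cells that also carried markers of other glomerular cells. These were Arhgap6, Arhgap33, Arhgap39, Arhgap42, Arhgef3 and Arhgef25, or 6 of the 36 found (16.7%), against 12.7% of the protein-coding genes found in any cell. For Arhgap6, Arhgap33 and Arhgap42, 3 of 36 (8.33%, against 9.67%), all such cells carried mesangial markers. The shares were thus near those of all genes. Without the 6 cells, 30 regulators were found in at least 1 cell and the median per cell was 13.5. The part of other cell types in the values of these 6 genes was not tested.

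Of the wider RhoA family pathway, the GTPases themselves, their inhibitors and their effectors were listed in the same way. Of 21 RhoA family GTPases, 14 were found, 3 of them in at least 10 cells. Rhoa was found in all 20 cells, with a lowest, median and highest level of 2.44, 156 and 389 RPKM. Cdc42 was found in 19 cells (0.348, 254 and 1149 RPKM) and Rac1 in 19 cells (0.178, 52.6 and 719 RPKM). The median of Rac1 was 89.9 RPKM without the 6 cells with other markers. Cell 12, the low cell of Arhgef18, was also the lowest cell of Rac1 and of Cdc42, whereas Rhoa stood there at 158.5 RPKM. Cell 12 also had the fewest genes found of all cells (2371, against a median of 3306). The podocyte marker Tcf21 had its lowest level there too, at 0.404 RPKM. RhoG, the target of Arhgef26 and Arhgef16, is encoded by Rhog, which was found in no cell. Rhoh, Rhou, Rhov, Rac3, Rnd2 and Rhobtb2 were not found either.

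Of the 3 RhoGDIs, which hold RhoA family GTPases in the cytosol, Arhgdia was found in 16 cells, its median being 107 and its highest level 551 RPKM. Human ARHGDIA is mutated in a hereditary nephrotic syndrome. Arhgdib was found only in cells 5, 10 and 11 (333.5, 197 and 216 RPKM), all of which carry mesangial markers, and Arhgdig in no cell. Of 35 effectors 25 were found, 11 of them in at least 10 cells. Pak1, a kinase activated by Rac1 and Cdc42, was found in all 20 cells, its median being 378 RPKM (2.05 to 818 RPKM). The Cdc42-activated kinase Cdc42bpa had a median of 180 RPKM (16 cells) and the scaffold Iqgap1 one of 127 RPKM (19 cells), and without the 6 cells these were 117 and 78.2 RPKM. Pak3, Diaph3, Cit, Pkn3, Limk1, Wasf3, Cdc42ep2, Cdc42ep5, Rhpn2 and Rtkn were found in no cell. Of the 6 partners of PIX proteins, 5 were found, and besides Pak1 the highest medians belonged to Pak2 (0.66 RPKM, or 1.36 RPKM without the 6 cells, in 9 cells) and Git2 (0.53 RPKM, 7 cells).

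RhoGAPs and RhoGEFs of other names included genes found in every cell, which none of the 56 coding regulators above was. Of 21 such RhoGAPs 17 were found, 6 in at least 10 cells. Srgap1, a GAP downstream of Slit and Robo signals, was found in all 20 cells, its median being 122 RPKM (11.8 to 536 RPKM), or 204 RPKM without the 6 cells. Abr and Srgap2 followed with medians of 9.92 and 6.02 RPKM in 15 and 13 cells. Without the 6 cells Myo9a came next after Srgap1, at 13.7 RPKM against 0.727 RPKM over all cells, and Abr had 8.72 RPKM. Srgap2 then had 1.43 RPKM, below Dlc1 (1.89 RPKM) and Racgap1 (1.79 RPKM). Chn2, Hmha1, Tagap and Fam13a were found in no cell. Of 33 such RhoGEFs 21 were found, 5 in at least 10 cells. Fgd4, a Cdc42 GEF, was found in all 20 cells and had a median of 50.7 RPKM and a range of 10.2 to 138 RPKM. The medians of Plekhg1 and of the RhoA GEF Akap13 were 22.8 RPKM (19 cells) and 8.13 RPKM (12 cells). Without the 6 cells Akap13 had a median of 0.263 RPKM and was found in 6 of 14 cells, against all 5 cells with mesangial markers, and Spata13 stood above it at 3.69 RPKM. Of 14 DOCK and ELMO genes, which form a separate family of Rac and Cdc42 exchange factors with their adaptors, 12 were found and 4 reached at least 10 cells. Dock5 led these with 17 cells and a median of 20.6 RPKM, followed by Dock4 in 16 cells (8.59 RPKM) and Elmo2 in 13 cells (5.61 RPKM, or 1.81 RPKM without the 6 cells), and Dock3 and Dock9 were found in none.

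**Figure D4:**
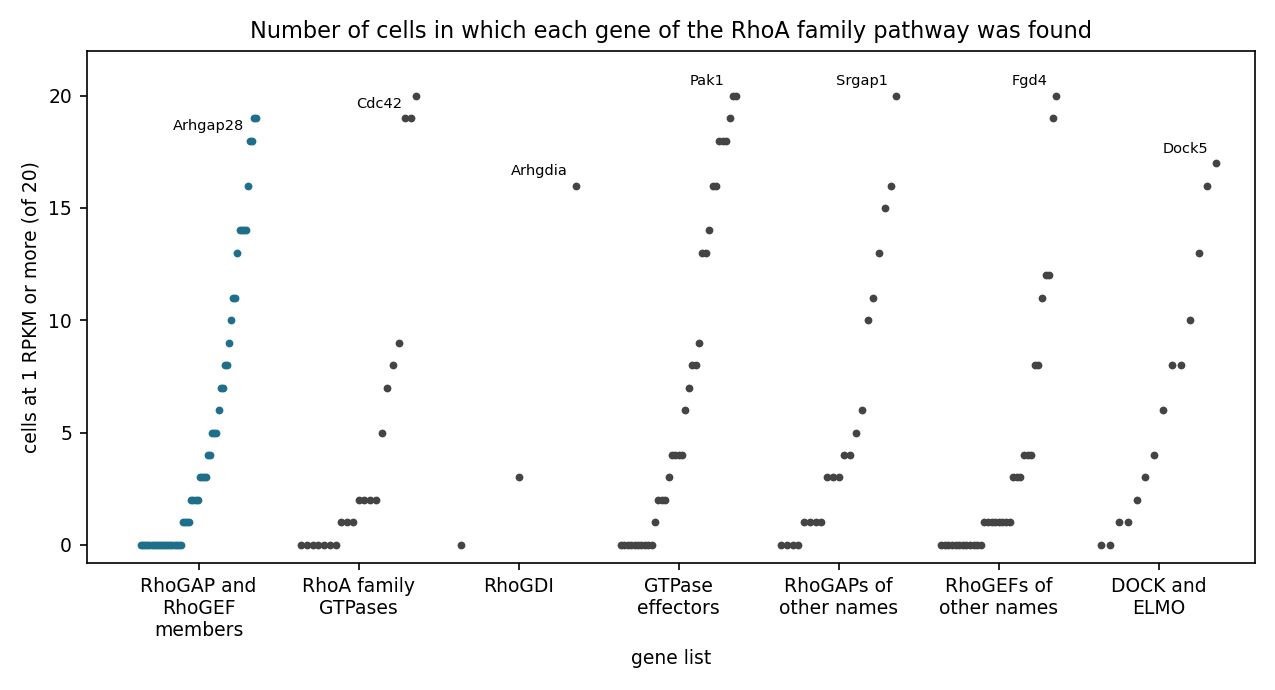
Number of the 20 cells in which each gene was found, with 1 point per gene, for the regulators and for 6 other lists of RhoA family pathway genes. No regulator reaches 20 cells, whereas Rhoa, Pak1, Srgap1 and Fgd4 do.

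The promoter windows of regulators were compared by their content of CG dinucleotides, the feature of CpG island promoters, which are common at genes active in many tissues. RefSeq windows of 300 bases, from 250 before to 50 after a gene start on GRCm38.p6, matched 42 of the 56 coding regulators, and the window with most CG was taken for each gene. The windows below show a broadly found regulator with the highest median (Arhgap28, 26 CG), the broadly found regulator with most CG (Arhgef12, 44), and the regulators without a read that had most (Arhgap20, 48) and fewest (Arhgef33, 2). They lie at chr17:68004059-68004358 on the minus strand, chr9:43105669-43105968 on the minus strand, chr9:51765101-51765400 on the plus strand and chr17:80307157-80307456 on the plus strand. Each is written 5′ to 3′ on the strand of its gene, with CG in capitals.
Arhgap28: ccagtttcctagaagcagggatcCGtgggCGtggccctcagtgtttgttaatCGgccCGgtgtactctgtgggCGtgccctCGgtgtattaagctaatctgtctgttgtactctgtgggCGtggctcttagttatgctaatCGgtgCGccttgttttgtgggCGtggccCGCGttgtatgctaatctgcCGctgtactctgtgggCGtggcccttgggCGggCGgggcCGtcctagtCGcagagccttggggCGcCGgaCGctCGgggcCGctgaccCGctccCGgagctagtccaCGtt
Arhgef12: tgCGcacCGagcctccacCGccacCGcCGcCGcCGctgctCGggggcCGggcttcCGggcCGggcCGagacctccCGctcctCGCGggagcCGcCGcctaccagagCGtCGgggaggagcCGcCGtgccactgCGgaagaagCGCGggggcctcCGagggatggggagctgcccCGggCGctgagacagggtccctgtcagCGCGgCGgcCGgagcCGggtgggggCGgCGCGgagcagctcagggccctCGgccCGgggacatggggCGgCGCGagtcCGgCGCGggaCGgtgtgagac
Arhgap20: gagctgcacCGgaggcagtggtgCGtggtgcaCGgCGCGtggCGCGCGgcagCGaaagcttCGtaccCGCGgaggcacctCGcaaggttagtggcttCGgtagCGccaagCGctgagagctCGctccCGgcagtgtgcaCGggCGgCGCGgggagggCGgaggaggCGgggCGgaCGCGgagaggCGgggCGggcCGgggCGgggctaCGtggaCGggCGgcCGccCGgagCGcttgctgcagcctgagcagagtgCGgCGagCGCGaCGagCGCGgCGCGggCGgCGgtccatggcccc
Arhgef33: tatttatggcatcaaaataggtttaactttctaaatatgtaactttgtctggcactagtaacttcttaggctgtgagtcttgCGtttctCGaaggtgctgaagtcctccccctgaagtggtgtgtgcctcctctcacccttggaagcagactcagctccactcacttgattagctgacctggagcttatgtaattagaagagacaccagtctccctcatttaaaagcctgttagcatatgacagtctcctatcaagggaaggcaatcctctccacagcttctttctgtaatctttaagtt

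Regulators without a read mostly had windows with few CG, like that of Arhgef33. For 11 such genes the lowest, median and highest counts were 2, 7 and 48, and 2 of them had 10 CG or more. For the 11 regulators found in at least 10 cells the counts were 2, 17 and 44, and 9 had 10 or more. The 20 regulators in between had 7, 27.5 and 54, and 16 of them had 10 or more. Over the highest windows of all 27025 genes the median was 8 and 45.8% had 10 or more, against 64.3% of the regulators. Those genes were not split by whether they had reads, so the contrast cannot be called particular to the regulators. CG was searched as those letters, which read the same on both strands, and 94.6% of all 32851 windows held at least 1.

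Arhgap20 shows that a window dense in CG did not go with reads in these cells in every case, and Arhgap5 shows the reverse. The window of Arhgap5, found in 18 cells, held 2 CG but lies 12105 bases inside the gene as annotated by GENCODE. For 25 regulators the window lay within 1000 bases of the GENCODE gene start, a limit chosen after seeing the data. The median was 16 CG for 6 genes found in at least 10 cells, 32 CG for 14 in between and 4 CG for 5 without a read. Of these genes 6, 12 and 2, in that order, had 10 CG or more. The windows of the other genes without a read lay over 1000 bases from the gene start. A CG count describes the letters of the window, and no methylation or binding was measured.

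**Figure D5:**
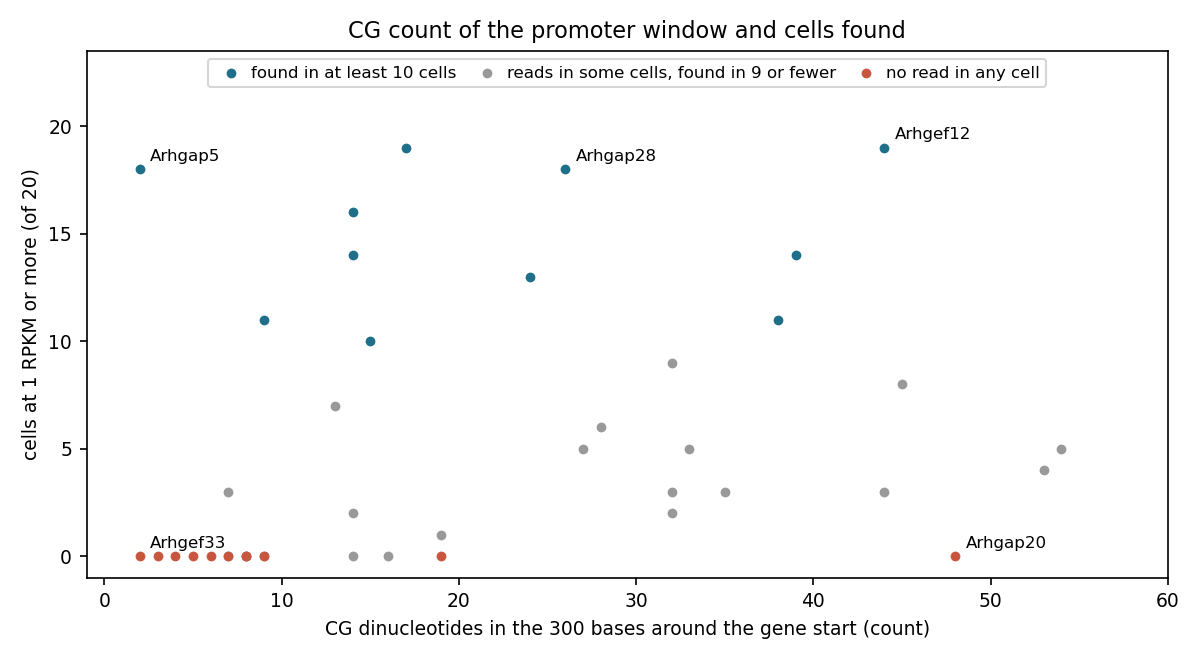
CG dinucleotides in the RefSeq promoter window against the number of cells in which a regulator was found, with 1 point per gene for 42 regulators. Regulators without a read lie mostly at 9 CG or fewer, with Arhgap20 at 48, and those found in at least 10 cells lie from 2 to 44.

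Gene length and shared sequence limit some of these levels. The deposited values had been divided by the mean transcript length for 17 of the 36 regulators found, and over all 36 the length used was 30.1% to 116% of the longest transcript, with a median of 52.1%. With the longest transcript the medians of Arhgef12, Arhgef18, Arhgap5 and Arhgap28 came to 43.2, 42.8, 41.4 and 38.9 RPKM, so the order of the leading regulators depended on the length used. No source used here says whether the counting used strand. Arhgef26 shares 21.6% of its exonic bases with 9330121J05Rik on the opposite strand, Arhgef11 shares 12.5% with Lrrc71 and Arhgap6 shares 11.01% with Hccs. Reads there cannot be told apart without strand. Lrrc71 itself stood at 0 RPKM in every cell, whereas Hccs was found in 6 cells at up to 152 RPKM. Arhgef12 shares 8.88% with Gm5831 and also resembles stretches of other genes, so part of its reads is uncertain. Of the 4 opposite-strand transcripts of the family, Arhgap15os had 1 read, in cell 5 (0.0675 RPKM), and Arhgap20os, Arhgap27os3 and Arhgap33os had none.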

How the data were processed

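The values were RPKM, deposited by the authors in a single table of 39179 genes and 20 single cells of 1 mouse. The submitters' processing notes name the aligner TopHat2 (2.0.12), the read counter HTSeq (0.6.1) and build GRCm38, without their settings. A blank cell, 1 in the whole table, was read as 0. Library totals and gene lengths were recovered from the steps of the RPKM values, with a whole-base length giving whole reads in every cell (within 0.001 read) for 13138 of 13170 genes with reads in several cells, and the recovery was tested on simulated data. Limits from read counts cover counting error only, since amplified reads are not independent molecules. With 1 group there was nothing to test, and no count model was fitted. GENCODE M21 (GRCm38) matched 37607 IDs and gave symbols, coordinates counted from 1 and lengths. Symbols were matched to the rule without regard to case, a gene that the table lists under another symbol is not a member, a gene of the same pattern was not analysed here, and another enters the counts and is not reported here.

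The members and gene lists were chosen with earlier results of these data known. Every regulator found in at least 10 cells or reaching 100 RPKM was described with its levels, other found regulators with their cells and highest level, and regulators found in no cell by name. For pathway lists the genes with the 3 highest medians were named, and those in no cell where 10 or fewer. For the regulators with the 3 highest medians the closest others by Spearman correlation were named. Classes by target follow general knowledge of each protein. Cells were numbered 1 to 20 in the order of their records. Similar sequence was searched with blastn 2.17.0 (at least 95% identity over 300 bases), and calculations used Python 3.11.15, numpy 2.4.6 and pandas 2.3.3. Alternatives were detection above 0 and at 5 RPKM, cells rescaled to 1 sum, longest transcript lengths, a pseudocount of 0.1 in place of 1, Pearson correlation, another set of genes for pairs, reads in place of RPKM, and leaving out the 6 cells with other markers. Leading regulators, class orders and strong pairs without those cells were added after seeing the data.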

Additional observations from a re-analysis of the deposited data

How the results depend on the processing

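No paired analysis was possible because all cells form 1 group. Counting every value above 0 RPKM as found gave 4 regulators in every cell in place of 0 and a median of 24 regulators per cell in place of 14. The number of regulators found in at least 1 cell was 42 above 0 RPKM, 30 at 5 RPKM, 30 without the 6 cells with other markers, and 36 both after rescaling and with the longest transcript. The median per cell was 11 at 5 RPKM and 13 with the longest transcript. The median GAP and GEF sums were 989 and 370 RPKM after rescaling, 1012 and 416.5 RPKM without the 6 cells, and 535.5 and 223 RPKM with the longest transcript. Of 18 regulators checked with a median above 0, rescaling moved no median by over 1.5 times. Leaving out the 6 cells moved 5 (Arhgap18 and Arhgap32 lower, Arhgap29, Arhgef16 and Arhgef17 higher), and the longest transcript lowered 14, Arhgap28 to 38.9 RPKM, Arhgef26 to 27.3 RPKM and Arhgap32 to 0.949 RPKM among them. A pseudocount of 0.1 moved the SD of the log2 level of 18 of the 19, and leaving out the 6 cells moved that of 4, to 2.38 for Arhgef18, 2.39 for Arhgap21, 0.54 for Arhgef2 and 0.03 for Arhgap42. The share of the leading regulator was 26.7% with reads in place of RPKM. With 1 animal, none of these values says how cells of other mice would vary.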
